A study of Mus musculus with 16 samples.

Results

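The genes described here are 8 genes by which astrocytes handle glutamate, potassium, water and bicarbonate and couple to one another: Slc1a2, Slc1a3, Glul, Kcnj10, Aqp4, Gja1, Gjb6 and Slc4a4. They were taken by symbol, as genes known for these functions, from the 30389 genes of the deposited tables, and the choice was made with earlier results of these data known. The tables came from Drop-seq, a droplet method that reads the 3′ end of messenger RNA and counts molecules by random tags (unique molecular identifiers, UMIs) within the barcode of each cell, of dissociated cortex from mice at 17 months of age. THY-Tau22 mice were heterozygous for a transgene for mutant human tau under the Thy1 promoter, which drives it in neurons, and the controls were wild-type (WT) littermates, all bred from heterozygous THY-Tau22 males and C57Bl6/J females. The labels name no other allele or treatment.

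Each of the 16 libraries, said to come from 16 mice, held 3000 barcodes. WT male replicate 3 had 2952 barcodes in common with the library labelled THY-Tau22 male replicate 4, whereas other library pairs had 3 to 12, so both were left out of the comparisons. This left WT mice (3 males, 3 females) and THY-Tau22 mice (3 males, 5 females), with 1041675 to 2237505 UMIs per library. THY-Tau22 female replicate 1 has the same animal number in its title as WT male replicate 1, so it is uncertain that every library is a separate mouse as labelled. Barcodes with 200 to 7000 detected genes were kept as cells, giving 24578 cells in these 14 libraries. Clusters that could not be named held 30.4% of the cells of THY-Tau22 male replicate 3 and 3.94 to 8.03% of those of the other libraries used. Mouse Mapt cannot check the human transgene, and its level overlapped between genotypes in both sexes.

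Astrocytes clear glutamate from the synaptic cleft with the transporters GLT-1 (Slc1a2) and GLAST (Slc1a3) and turn it into glutamine with glutamine synthetase (Glul). Potassium is taken up through the inward rectifier Kir4.1 (Kcnj10), water moves through aquaporin-4 (Aqp4) at the endfeet on blood vessels, and the sodium bicarbonate cotransporter NBCe1 (Slc4a4) adjusts pH. Connexin 43 (Gja1) and connexin 30 (Gjb6) form the gap junctions that join astrocytes into a network.

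Sequence around the start of 3 of these genes is shown because they had the largest fitted fold changes between the male groups, as described further on. Each line is the RefSeq window on GRCm38.p6 from 250 bases before to 50 bases after the start, written 5′ to 3′ on the gene's strand. The windows are chr10:56377050-56377349 on the plus strand for Gja1, chr1:172340960-172341259 on the plus strand for Kcnj10 and chr14:57133562-57133861 on the minus strand for Gjb6. Capitals mark matches, on either strand, to the TATA box, searched as TATAAA, the GC box, searched as GGGCGG, and the AP-1 motif, searched as TGACTCA, none of which overlap another.
Gja1: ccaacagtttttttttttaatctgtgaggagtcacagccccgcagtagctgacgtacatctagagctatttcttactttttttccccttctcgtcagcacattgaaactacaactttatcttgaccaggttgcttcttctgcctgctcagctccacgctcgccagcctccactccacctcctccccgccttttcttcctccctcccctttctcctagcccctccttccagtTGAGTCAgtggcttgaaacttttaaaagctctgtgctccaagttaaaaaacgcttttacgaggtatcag
Kcnj10: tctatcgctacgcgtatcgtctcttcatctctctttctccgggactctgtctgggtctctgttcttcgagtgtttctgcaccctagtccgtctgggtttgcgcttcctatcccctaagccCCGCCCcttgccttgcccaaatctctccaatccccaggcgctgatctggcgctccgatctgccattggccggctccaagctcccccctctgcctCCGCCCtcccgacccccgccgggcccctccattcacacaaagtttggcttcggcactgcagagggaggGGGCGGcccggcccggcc
Gjb6: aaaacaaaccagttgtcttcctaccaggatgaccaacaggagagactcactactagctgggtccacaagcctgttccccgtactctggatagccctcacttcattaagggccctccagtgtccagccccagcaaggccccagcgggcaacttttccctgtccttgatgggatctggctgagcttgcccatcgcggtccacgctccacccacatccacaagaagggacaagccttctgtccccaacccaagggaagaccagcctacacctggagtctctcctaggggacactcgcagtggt
The Gja1 window held 1 match to TGACTCA, a motif found in 5.20% of the 32851 mouse promoter windows searched. The Kcnj10 window held 3 matches to GGGCGG, which 35.7% of windows held, and no motif of the 3 matched in the Gjb6 window, while TATAAA, found in 13.6% of windows, matched in none of these 3. No motif was thus shared by these 3 windows. The GC content was 47.7% for Gja1, 63.7% for Kcnj10 and 57.3% for Gjb6.

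Cells were clustered without the 8 genes and named by fixed markers that also left them out. Astrocyte-like cells numbered 4553, between 227 and 498 per library, and held 109158 to 406764 UMIs per library. Of the 10 astrocyte markers, 9 were detected in at least 5% of these cells, and Gfap, the filament protein of reactive astrocytes, had a UMI in 2.17% of them. The 8 genes together made up 2.25% of all UMIs in astrocyte-like cells (1.93 to 2.52% across the 14 libraries). The same share was 0.279% in fibroblast-like, 0.228% in oligodendrocyte-like and 0.142% in microglia-like cells. After each cell was thinned to 300 UMIs, the median astrocyte-like cell held UMIs of 3 of the 8 genes and 0.761% held none, whereas 53.4% of oligodendrocyte-like cells held none.

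Levels below are UMIs of a gene per 1000000 UMIs (CPM), summed over the cells of a class in a library, given as mean ± SD over libraries. They compare 1 gene between cell classes, not genes with each other, and were described without a test. Droplets also catch free RNA, so the astrocyte markers serve as a reference: relative to astrocyte-like cells, their median level was 1.46 to 5.30% in the other named cell classes and 25.4% in barcodes under 200 genes. The 8 genes stood at 22.7 to 42.5% in those small barcodes. The unnamed clusters, where they stood at 20.5 to 43.7%, are left out of the class comparisons that follow.

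The glutamate transporters were concentrated in astrocyte-like cells. Slc1a2 reached 11109.6 ± 1190.9 CPM there (n = 14). It reached 1011.0 ± 163.5 CPM in OPC-like cells (oligodendrocyte precursors) and 842.9 ± 271.1 CPM in neuron-like cells, whose ranges overlapped. These levels were 9.10 and 7.59% of the astrocyte-like level, and the remaining named classes lay at 1.67 to 3.24%. Single astrocyte markers reached up to 14.8% of their astrocyte-like level in OPC-like cells and up to 5.47% in neuron-like cells. Slc1a3 was at 3567.1 ± 362.3 CPM in astrocyte-like cells, with 253.7 ± 106.0 CPM in OPC-like and 218.8 ± 33.1 CPM in microglia-like cells. For both transporters, every astrocyte-like library stood above every library of the next class. In cells thinned to 300 UMIs, Slc1a2 was detected in 93.0% of astrocyte-like cells (97.6% unthinned) and in 7.86% of microglia-like cells, and Slc1a3 in 62.6% (80.7% unthinned) and 6.38%. The median depths of the unthinned classes were 551.0 and 503.0 UMIs.

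Glul was spread over more classes. It was at 2505.8 ± 530.3 CPM in astrocyte-like cells, 1418.5 ± 375.7 CPM in oligodendrocyte-like cells and 776.6 ± 213.2 CPM in microglia-like cells, or 56.6 and 31.0% of the astrocyte-like level. The oligodendrocyte-like range, 805.3 to 2109.0 CPM, overlapped the astrocyte-like range, 1954.1 to 3507.6 CPM. Endothelial-like, fibroblast-like and mural-like cells held 21.9 to 23.6% of that level, above the highest of the medians for the markers. Thinned cells with a Glul UMI made up 49.0% of astrocyte-like, 33.2% of oligodendrocyte-like and 19.5% of microglia-like cells. The unthinned shares were 69.3, 52.4 and 32.4%.

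Kcnj10 was shared between glia of both lineages. It stood at 366.6 ± 167.0 CPM in astrocyte-like, 330.4 ± 84.8 CPM in oligodendrocyte-like, 262.1 ± 155.3 CPM in ependymal-like (n = 4 libraries) and 248.7 ± 93.5 CPM in OPC-like cells. No neighbours in this order differed by more than their SD, and the mean of every other named class was at or under 26.3 CPM. A Kcnj10 UMI was present in 9.92% of thinned astrocyte-like cells, 8.61% of oligodendrocyte-like cells and 0.508% of microglia-like cells (17.6, 18.1 and 1.31% unthinned). The astrocyte markers stood at a median of 1.75% of their astrocyte-like level in the oligodendrocyte-like cells, in which Kcnj10 stood at 90.1%.

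Aqp4 was found in astrocyte-like and ependymal-like cells. Its level was 1025.6 ± 269.7 CPM in the former and 709.0 ± 430.7 CPM in the latter, which line the ventricles and were counted in 4 libraries with overlapping values (230.5 to 1230.9 CPM). The means of all other named classes were at or under 28.3 CPM. Slc4a4 was at 1766.1 ± 168.3 CPM in astrocyte-like cells, above every library of fibroblast-like cells, which came next at 333.9 ± 235.6 CPM (n = 8 libraries). In thinned cells the share with a UMI was 23.4% for Aqp4 and 39.1% for Slc4a4 in astrocyte-like cells, against 0.338 and 1.20% in microglia-like cells (39.6, 58.8, 0.846 and 2.12% unthinned, in the same order).

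Both connexins were also present in fibroblast-like cells, a class of 149 cells. Of the 7 fibroblast markers, 4 met the limits on detection and on fold over other cells, and the collagen gene Col1a2 was among the genes most raised in this class. Gja1 stood at 1912.2 ± 653.4 CPM in astrocyte-like cells and at 1031.3 ± 420.5 CPM in fibroblast-like cells (n = 8 libraries, 549.9 to 1659.0 CPM). Gjb6 was at 412.8 ± 205.4 CPM in fibroblast-like and 293.5 ± 104.6 CPM in astrocyte-like cells, and the ranges overlapped. The astrocyte markers were at a median of 1.46% of their astrocyte-like level in these fibroblast-like cells. In thinned cells, Gjb6 was detected in 14.9% of fibroblast-like, 7.75% of astrocyte-like and 0.154% of microglia-like cells, and Gja1 in 20.3, 37.8 and 0.784% (unthinned, 32.9, 15.8 and 0.263% for Gjb6 and 51.0 and 57.5% for Gja1 in the first and second of these classes). No Gjb6 UMI was seen in 124 ependymal-like cells, a count that allows a share of cells with a UMI of up to 2.42%. This limit covers counting error only.

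**Figure D1:**
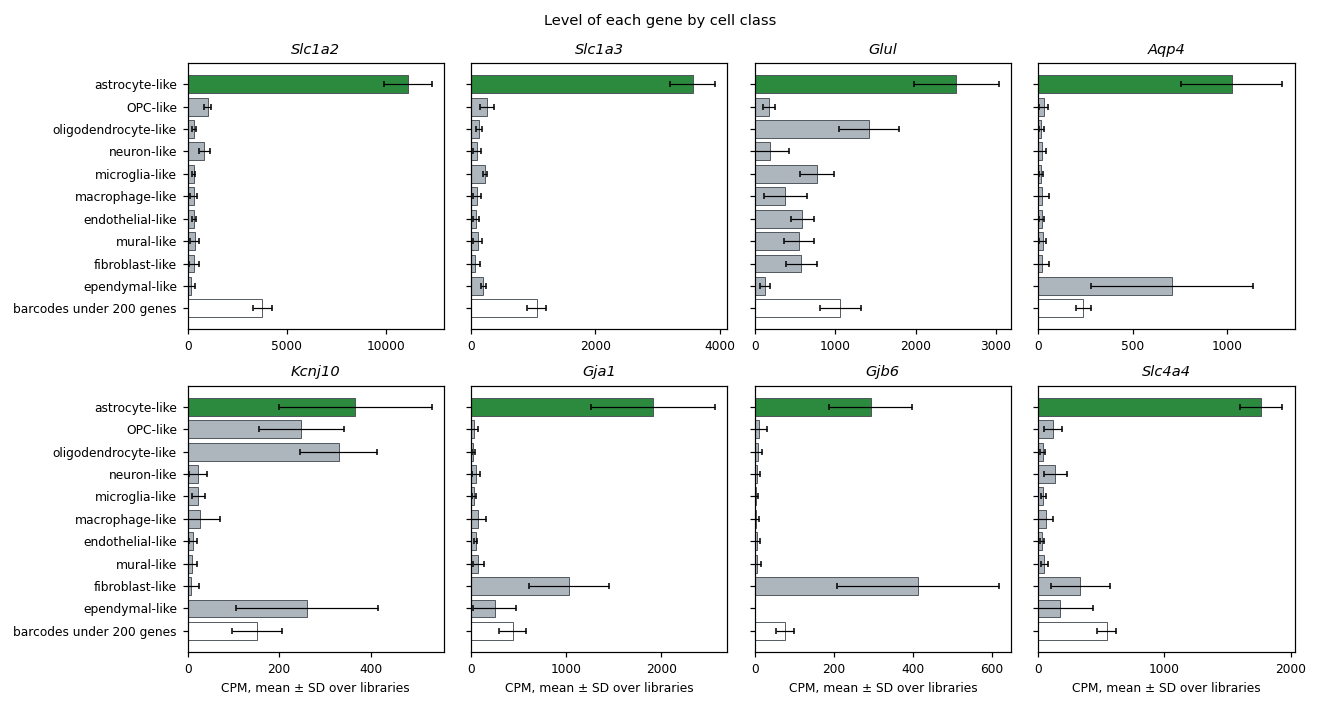
Level of each of the 8 genes by cell class, in CPM of summed UMIs; bars are means over libraries, whiskers are SD, and the white bar is barcodes under 200 genes. Slc1a2, Slc1a3 and Slc4a4 stand highest in astrocyte-like cells without overlap, Kcnj10 is near 330.4 CPM in oligodendrocyte-like cells, and Gjb6 and Gja1 are also high in fibroblast-like cells.

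At a finer clustering, which split most astrocyte-like cells into 3164 and 1383 cells, the second set had more UMIs per cell (library medians of up to 1117.0 against up to 562.5). Gja1 and Slc1a2 were higher in the second set in 14 of 14 libraries, at 2114.5 ± 631.3 against 1732.9 ± 605.7 CPM for Gja1. Kcnj10 divided evenly, being higher there in 7 of 14 libraries. The other 5 genes were higher there in 10 to 13 libraries. Depth per cell differed between the sets, and its part in these differences was not tested.

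The genes whose mean levels followed each of the 8 most closely over 10 cell classes were found by Pearson correlation of log2(CPM + 1) among 12448 genes, as a description over classes of the same libraries. Slc1a2 was closest to the glycolytic enzyme gene Aldoc (r = 0.964), Mfap3l (0.960) and the GABA transporter gene Slc6a11 (0.952). Aqp4 was closest to the glial transcription factor gene Sox9 (0.971), Ppp1r3g (0.963) and the metallothionein gene Mt3 (0.953). Kcnj10 was closest to Hepacam, which encodes GlialCAM (0.971), Gm6166 (0.954) and Pcsk6 (0.941). Gjb6 was closest to Scara3 (0.969), Myoc (0.963) and the tissue factor gene F3 (0.953), and Gja1 to the magnesium transporter gene Slc41a1 (0.942), Lxn (0.927) and the glycogen phosphorylase gene Pygb (0.921). Slc1a3 was closest to the glycine decarboxylase gene Gldc (0.951), Gm26512 (0.945) and Gm10561 (0.920), and Slc4a4 to Igdcc4 (0.940), Ivd (0.917) and the glycerol kinase gene Gk (0.911). Glul was closest to Glns-ps1 (0.973), Haus3 (0.886) and Lgi4 (0.867). Glns-ps1 is named as a glutamine synthetase pseudogene, so that reads of Glul and Glns-ps1 may have been divided between them and both levels are uncertain.

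The comparison of THY-Tau22 with WT mice asked whether these genes differed by genotype in each sex. UMIs were summed per library and fitted with edgeR's quasi-likelihood test, with composition-adjusted (TMM) library sizes. Calls needed an adjusted p under 0.05 (Benjamini-Hochberg, over all genes tested) and a log2 fold change of 0.5 or more in either direction. In astrocyte-like cells none of the 8 genes was called in males, in females, in the difference between the sexes or over both sexes, and 0.0% of the 4029 genes tested were called in each. With an unadjusted p under 0.05, the counts were 1 of 8 in males (17.0% of all genes tested), 0 of 8 in females (3.05%), 1 of 8 for the difference (17.6%) and 0 of 8 over both sexes (4.57%). The shares for the 8 genes were thus near those of all genes.

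Gja1, connexin 43, was the gene with the lowest p in males. In astrocyte-like cells the WT males had 969.4, 1257.3 and 1225.7 CPM and the THY-Tau22 males 2101.3, 2436.9 and 2450.9 CPM. The male groups did not overlap. The fitted log2 fold change was 0.76 ± 0.26 (SE, 95% interval 0.26 to 1.26), with an unadjusted p of 0.00551 and an adjusted p of 0.162 by edgeR. The adjusted p ranged from 0.0506 to 0.997 over the alternatives, the lowest with DESeq2 and the highest with the mitochondrial mRNA share as a covariate, where the change was 0.34. Without THY-Tau22 male replicate 3, the library with many unnamed cells, it was 0.74 (adjusted p = 0.577 by edgeR). The library found under both labels had 1564.9 CPM as WT male replicate 3 and 1535.4 CPM as THY-Tau22 male replicate 4, between the ranges of the male groups.

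In females, WT libraries had 2803.3, 2726.4 and 1508.5 CPM of Gja1 and THY-Tau22 libraries 1446.6, 1318.8, 1920.1, 2880.0 and 1725.8 CPM. These groups overlapped, with a log2 fold change of -0.28 (adjusted p = 0.999 by edgeR). The male minus female difference was 1.04 ± 0.34 on the log2 scale, with an unadjusted p of 0.00425 and an adjusted p of 0.142. Over the alternatives that adjusted p ranged from 0.0129 to 1.0. Leaving out WT female replicate 3, whose Gja1 level was the lowest of the WT females, made Gja1 called (1.17, adjusted p = 0.0129 by edgeR), together with 654 of 4512 genes, or 14.5%. In that fit both WT females had title numbers of 3, 4, 7 or 8 while 3 of the 5 THY-Tau22 females did not, a division of the libraries taken up further on. Leaving out the libraries whose titles carry MB22, which are this library and THY-Tau22 female replicate 5, also made Gja1 called (1.18, adjusted p = 0.0202), together with 11.7% of genes. There too both WT females had title numbers of 3, 4, 7 or 8, while THY-Tau22 female replicates 1 and 2 did not.

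Gjb6, connexin 30, had 189.2, 245.3 and 185.9 CPM in WT males and 297.0, 322.5 and 496.4 CPM in THY-Tau22 males. These groups did not overlap, with a log2 fold change of 0.59 ± 0.31 (adjusted p = 0.319 by edgeR), which was 0.34 without THY-Tau22 male replicate 3 (adjusted p = 0.791). WT females had 302.3, 465.6 and 191.0 CPM and THY-Tau22 females 352.7, 140.2, 361.6, 239.3 and 319.6 CPM. The female groups overlapped throughout, at a log2 fold change of -0.05.

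Kcnj10, the potassium channel gene, had 192.1, 260.6 and 227.2 CPM in WT males and 371.2, 400.2 and 407.7 CPM in THY-Tau22 males, again without overlap. The log2 fold change was 0.54 ± 0.32 (adjusted p = 0.386 by edgeR). In females the values were 412.2, 455.3 and 219.6 CPM in WT and 276.8, 280.3, 629.2, 771.0 and 228.6 CPM in THY-Tau22 mice. The latter group held both high and low libraries and overlapped the WT females (log2 fold change 0.30).

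Aqp4, the water channel gene, had 629.5, 787.1 and 819.4 CPM in WT males and 935.5, 1170.6 and 1232.1 CPM in THY-Tau22 males. The male groups did not overlap, and the log2 fold change was 0.32 ± 0.25 (adjusted p = 0.524 by edgeR). WT females had 1355.8, 1045.0 and 846.6 CPM and THY-Tau22 females 794.7, 949.3, 1403.0, 1524.2 and 865.4 CPM, which overlapped (log2 fold change 0.07).

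Of the glutamate genes, Slc1a3 had 3127.0, 3516.2 and 3353.5 CPM in WT males and 3526.9, 4019.6 and 4099.7 CPM in THY-Tau22 males. These groups did not overlap in CPM, by a margin of 3516.2 against 3526.9 CPM, yet the fitted log2 fold change was -0.04 ± 0.25. It was 0.26 when library totals replaced the TMM sizes. Slc1a2 overlapped in males, with 9907.2, 10758.2 and 12505.1 CPM in WT and 10758.8, 12094.7 and 9728.4 CPM in THY-Tau22 mice (log2 fold change -0.29 ± 0.27, turning to 0.01 with library totals). Glul ranged from 2017.6 to 2527.1 CPM in WT and from 2341.3 to 3368.4 CPM in THY-Tau22 males, and the groups overlapped (0.09 ± 0.27). The bicarbonate transporter gene Slc4a4 ranged from 1499.8 to 2072.5 CPM over the 14 libraries, and its male groups overlapped (-0.20 ± 0.25, turning to 0.11 with library totals). In females these 4 genes had log2 fold changes between 0.07 and 0.20 (adjusted p = 0.999 for each by edgeR), with SE of 0.22 to 0.28 over all 8 genes.

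In all, 5 of the 8 genes (Slc1a3, Aqp4, Kcnj10, Gja1 and Gjb6) had every THY-Tau22 male above every WT male in CPM, where 22.3% of all genes tested did, and none had every one below, where 5.36% did. This scale moved the whole distribution. The median log2 fold change of all genes in males was 0.33 with library totals and 0.01 with TMM sizes, so that the CPM of the THY-Tau22 males ran higher for the median gene. With library totals, 4 of 8 genes had an unadjusted p under 0.05 in males, as did 19.6% of all genes tested, and none was called.

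**Figure D2:**
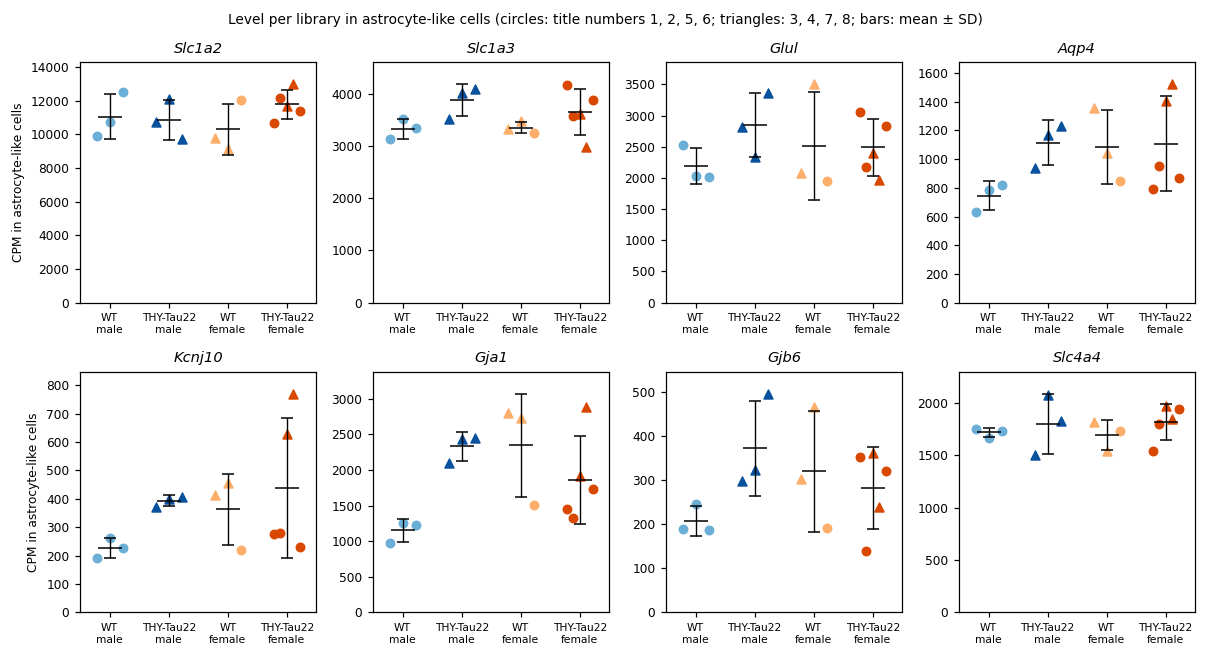
CPM of each of the 8 genes in the astrocyte-like cells of each of the 14 libraries, by genotype and sex; black marks are group means ± SD, circles are title numbers 1, 2, 5 and 6 and triangles 3, 4, 7 and 8. For Gja1, Gjb6, Kcnj10, Aqp4 and Slc1a3 every THY-Tau22 male lies above every WT male, as for 22.3% of all genes tested. The female groups overlap for all 8 genes. All WT males are circles and all THY-Tau22 males triangles, whereas both female groups hold circles and triangles.

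**Figure D3:**
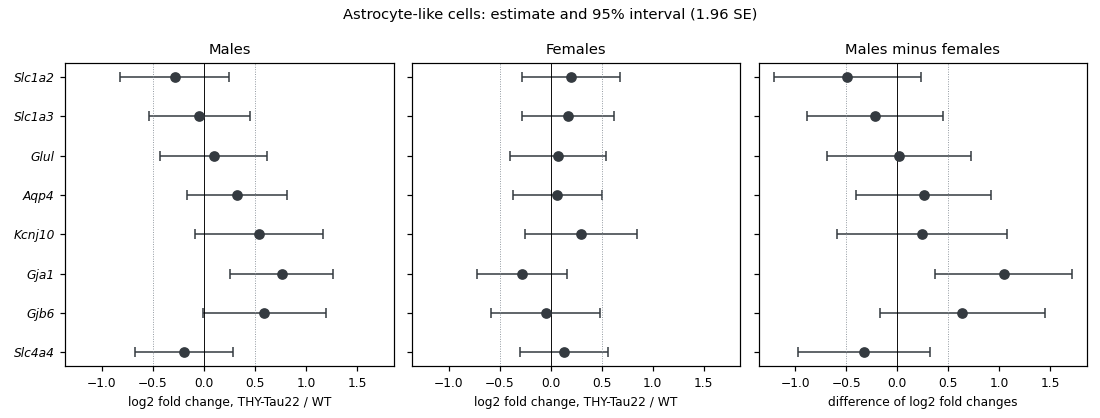
Fitted log2 fold changes (THY-Tau22 over WT) in astrocyte-like cells of males and females, and their difference, with 95% intervals; dotted lines mark 0.5 in either direction. The interval of Gja1 lies above 0 in males (0.26 to 1.26) and in the difference between sexes.

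Measures of the libraries moved with these male values. The median mitochondrial mRNA share per astrocyte-like cell was 1.43 ± 0.30% in the male THY-Tau22 libraries, against 0.721 ± 0.12% in the male WT libraries (n = 3 each, exact two-sided permutation p = 0.10, the smallest that this design allows). In females it was 1.04 ± 0.15% (n = 5) and 1.21 ± 0.46% (n = 3), with an exact permutation p of 0.482. With this share as a covariate, a choice made after the data were seen, no gene of the 8 had an unadjusted p under 0.05 in astrocyte-like or in all cells. The share of all genes with one was then 4.22% in males, 3.18% in females, 3.10% for the difference and 4.64% over both sexes in astrocyte-like cells, and 2.76, 2.00 and 2.33% for the former 3 in all cells. The male log2 fold changes of Kcnj10 and Gjb6 turned to -0.21 and -0.02 with this covariate. In males the share did not overlap between genotypes, at 0.645 to 0.858% in WT and 1.24 to 1.77% in THY-Tau22 libraries. The covariate thus takes up much of the male genotype contrast, so in males that fit cannot tell the share and genotype apart. The summed level of the 10 astrocyte markers in astrocyte-like cells was 7671.1 to 8463.4 CPM in WT males and 10016.2 to 14692.3 CPM in THY-Tau22 males, against 7472.6 to 14045.8 CPM in WT and 8333.2 to 12034.0 CPM in THY-Tau22 females. Within the male sums, Aldoc had means of 1966.8 CPM in WT and 5032.9 CPM in THY-Tau22 mice, whereas Plpp3 had 4197.7 and 3672.1 CPM. The fitted male log2 fold change was above 0 for 7 of the 10 markers. The sum of 8 oligodendrocyte markers in the same cells was 102.2 to 137.7 CPM in WT males, with Ugt8a at 0 in all 3, and 197.1 to 593.9 CPM in THY-Tau22 males, with no marker at 0 in all 3. It was 229.1 to 408.7 CPM in WT and 127.4 to 301.3 CPM in THY-Tau22 females. Over the 14 libraries, the Pearson correlation of CPM with the mitochondrial share was 0.859 for Gja1, 0.816 for Gjb6, 0.683 for Aqp4 and 0.598 for Kcnj10. It was 0.564 for Glul, 0.313 for Slc1a3, 0.037 for Slc4a4 and -0.447 for Slc1a2. Genotype and sex were not held fixed in these correlations. In males, neither they nor the covariate fit can tell the share and genotype apart. The part of the marker sums in the values of the 8 genes was not tested.

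The sample titles carry a number from 1 to 8, whose meaning is not given in the sources used here, and the levels of some of the genes followed it, a pattern noticed after the values were seen. Gja1 was 969.4 to 1725.8 CPM in the 7 libraries numbered 1, 2, 5 or 6 and 1920.1 to 2880.0 CPM in the 7 numbered 3, 4, 7 or 8. The corresponding ranges were 192.1 to 280.3 and 371.2 to 771.0 CPM for Kcnj10, and 629.5 to 949.3 and 935.5 to 1524.2 CPM for Aqp4, which overlapped slightly. The ranges of the other 5 genes overlapped, being 140.2 to 352.7 and 239.3 to 496.4 CPM for Gjb6 and 9907.2 to 12505.1 and 9120.7 to 12999.9 CPM for Slc1a2. The mitochondrial share was 0.645 to 0.955% in the former libraries and 1.16 to 1.77% in the latter. Within the former and the latter (n = 7 each), its Pearson correlation with CPM was 0.547 and 0.33 for Gja1 and 0.578 and 0.807 for Gjb6. It was 0.494 and -0.247 for Aqp4, 0.785 and -0.402 for Kcnj10 and 0.553 and 0.756 for Glul. For Slc1a3 it was 0.868 and 0.382, for Slc4a4 -0.022 and -0.31 and for Slc1a2 -0.114 and -0.731. All WT males were in the former and all THY-Tau22 males in the latter, so that in males genotype and title number cannot be told apart. In females both genotypes were in both. Within the former the log2 ratio of mean Gja1 in THY-Tau22 (n = 3) to WT (n = 1) females was -0.01, and within the latter (n = 2 each) it was -0.20. The same ratios were 0.25 and 0.69 for Kcnj10, 0.04 and 0.29 for Aqp4 and 0.50 and -0.35 for Gjb6.

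**Figure D4:**
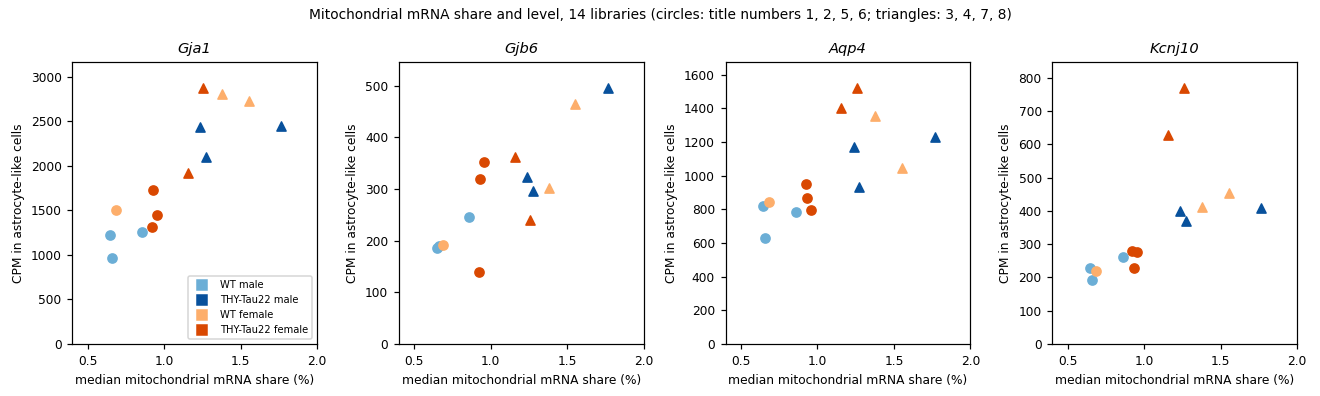
CPM in astrocyte-like cells against the median mitochondrial mRNA share (percent) of those cells, 1 point per library, coloured by genotype and sex; circles are title numbers 1, 2, 5 and 6 and triangles 3, 4, 7 and 8. Circles lie at 0.645 to 0.955% and triangles at 1.16 to 1.77%, and for Gja1 every triangle lies above every circle.

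Over all cells of a library, 0 of the 8 genes and 0.0% of the 11643 genes tested were called in males, in females or for the difference between the sexes. An unadjusted p under 0.05 was found for 2 of 8 in males (15.4% of all genes tested), 0 of 8 in females (1.74%) and 1 of 8 for the difference (12.7%). In such sums, fewer astrocytes and less RNA per astrocyte cannot be told apart. Astrocyte-like cells made up 15.6 ± 1.25% of cells in the male THY-Tau22 libraries, against 18.7 ± 1.17% in the male WT libraries (n = 3 each, exact two-sided permutation p = 0.10, the smallest possible), a difference that turned to 2.77 percentage points higher in THY-Tau22 males when cells needed 500 genes. That turn rested on THY-Tau22 male replicate 3, without which the difference under 500 genes was -0.91 percentage points. With classes from each cell's own markers, the male difference was -0.083 percentage points. It was -3.09 at the finer clustering and -3.655 with doublets removed. In females the shares were 19.4 ± 2.78% (n = 5) and 19.2 ± 3.13% (n = 3), with an exact permutation p of 0.857.

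Gja1 over all cells was 206.3, 251.8 and 235.7 CPM in WT males and 327.3, 401.4 and 560.0 CPM in THY-Tau22 males, without overlap (log2 fold change 0.71 ± 0.26, adjusted p = 0.266 by edgeR). WT females had 526.3, 678.8 and 322.0 CPM and THY-Tau22 females 257.3, 295.3, 433.9, 519.9 and 419.3 CPM, which overlapped. The difference between the sexes was 1.06 ± 0.35 (adjusted p = 0.291 by edgeR). Without WT female replicate 3 it was 1.23 and called (adjusted p = 0.0267, 9.56% of genes called), and without both MB22 libraries 1.28 (adjusted p = 0.037, 6.04% called). Both fits kept only WT females with title numbers of 3, 4, 7 or 8. Gjb6 was 42.1, 45.7 and 34.2 CPM in WT males and 45.8, 68.8 and 123.4 CPM in THY-Tau22 males, of which the first nearly touched the WT range (0.77 ± 0.34, adjusted p = 0.292 by edgeR). Without THY-Tau22 male replicate 3 this was 0.35 (adjusted p = 0.788 by edgeR). Kcnj10 was 87.6, 111.1 and 108.2 CPM against 162.2, 159.4 and 184.4 CPM, without overlap (0.55 ± 0.27, adjusted p = 0.335 by edgeR). In CPM, 3 of 8 genes (Kcnj10, Gja1 and Gjb6) had every THY-Tau22 male above every WT male, where 22.4% of all genes did, and 0 had every one below (6.68%).

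In other cell classes the genes that passed the filter on low counts were 5 in oligodendrocyte-like, 5 in microglia-like and 3 in endothelial-like cells, and none was called in either sex or for the difference. The share of all genes called was 0.0506% in males, 0.0253% in females and 0.404% for the difference in oligodendrocyte-like cells, 0.645, 0.0 and 0.0% in microglia-like cells and 0.0% in each for endothelial-like cells. Kcnj10 in oligodendrocyte-like cells, the class nearest to astrocyte-like cells in its level, had a log2 fold change of 0.37 ± 0.27 in males and 0.29 ± 0.24 in females. Its male ranges there were 222.9 to 293.5 CPM in WT and 349.7 to 408.5 CPM in THY-Tau22 mice, without overlap. The female ranges, 251.0 to 344.9 CPM in WT and 233.9 to 534.6 CPM in THY-Tau22 mice, overlapped. The share of all genes without overlap was not counted in this class. Slc1a2 in the same class was 363.5 to 508.6 CPM in WT and 190.3 to 374.9 CPM in THY-Tau22 females, ranges that overlapped (-0.61 ± 0.25, adjusted p = 0.997 by edgeR), and was the 1 of 5 with an unadjusted p under 0.05, which 3.29% of all genes had. Gja1 in microglia-like cells was 23.7 to 80.2 CPM in WT and 14.5 to 36.4 CPM in THY-Tau22 females (-1.05 ± 0.45, adjusted p = 0.998 by edgeR), and was likewise 1 of 5 (2.83% of all genes). It was also the 1 of 5 for the difference between the sexes there (1.57 ± 0.73, with 14.0% of all genes). Slc1a2 in oligodendrocyte-like cells stood at 2.93% and Gja1 in microglia-like cells at 1.57% of the astrocyte-like level, where the astrocyte markers had medians of 1.75 and 2.03%. Both lay within the ranges of the single markers, 0.752 to 3.46% and 0.859 to 5.94% in these 2 classes.

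Partner genes of the same functions were listed by role and tested in astrocyte-like cells, where 24 of 55 passed the filter on low counts and none was called in males, in females or for the difference. Of the glutamate and neurotransmitter list, 8 of 18 were tested in males and their median was 0.02 on the log2 scale, beside 0.01 for all genes. Slc25a18, a mitochondrial glutamate carrier gene, had the lowest p, at 79.8 to 102.2 CPM in WT and 125.4 to 328.0 CPM in THY-Tau22 males (1.04 ± 0.36, unadjusted p = 0.007, adjusted p = 0.165 by edgeR). Of the endfoot and potassium list, 11 of 15 were tested, with a median of -0.24. Dtna, which encodes dystrobrevin alpha of the endfoot dystrophin complex, was at 331.0 to 488.9 CPM in WT and 245.0 to 346.4 CPM in THY-Tau22 males (-0.68 ± 0.28, adjusted p = 0.205 by edgeR). Of the acid-base and lactate list 4 of 12 were tested, with a median of 0.08, and the carbonic anhydrase gene Car2, also abundant in oligodendrocytes, was at 449.3 to 730.8 CPM in WT and 980.1 to 1453.7 CPM in THY-Tau22 males (0.82 ± 0.28, adjusted p = 0.165 by edgeR). Slc25a18, Dtna and Car2 were each the 1 gene of their list with an unadjusted p under 0.05 in males, where 17.0% of all genes had one. The connexin list had 1 of 10 tested, Tjp1, which encodes the connexin partner ZO-1, at -0.20 (adjusted p = 0.781 by edgeR). None of the 24 had one in females.

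The difference between the sexes was 1.43 ± 0.48 for Slc25a18, -0.99 ± 0.37 for Dtna and 0.93 ± 0.38 for Car2 (adjusted p = 0.142, 0.175 and 0.211 by edgeR). All 3 were called when WT female replicate 3 was left out (3 of 26 partner genes tested, beside 14.5% of all genes) and without both MB22 libraries (3 of 24, beside 11.7%), shares near those of all genes. Of the 10 astrocyte markers, 4 had an unadjusted p under 0.05 in males, namely Aldoc (1.08 ± 0.31), Ntsr2 (1.00 ± 0.33), Acsbg1 (1.15 ± 0.32) and Cldn10 (1.08 ± 0.32), all higher in THY-Tau22 mice, where 17.0% of all genes had one, and 0 were called (adjusted p = 0.145 to 0.152 by edgeR). Of the other 6, Plpp3 (-0.46), Slc7a10 (-0.39) and Fgfr3 (-0.23) had log2 fold changes below 0. The median over the markers was 0.55 in males and -0.15 in females. 

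The genes lie on GRCm38, by the GENCODE annotation, at chr2:102658659-102790784 (Slc1a2, plus strand), chr15:8634124-8710764 (Slc1a3, minus), chr1:153899944-153909723 (Glul, plus), chr1:172341210-172374085 (Kcnj10, plus), chr18:15389496-15410982 (Aqp4, minus), chr10:56377330-56402513 (Gja1, plus), chr14:57123303-57133611 (Gjb6, minus) and chr5:88886818-89239653 (Slc4a4, plus). Gm13872 is antisense to Slc1a2 and AC133525.2 to Aqp4, Teddm2 overlaps Glul on the opposite strand, and Gm37310 overlaps Slc1a3 and Mir8114 Glul on the same strand. The strand setting of the counting was not given in the sources used here, so reads of overlapping genes cannot be told apart. No annotated gene overlaps Kcnj10, Gja1, Gjb6 or Slc4a4.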

How the data were processed

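The authors deposited, for each Drop-seq library, a table of UMI counts per gene and barcode, made from reads aligned to mm10 per the submitters' processing notes. The counts were used as deposited, in 3000 barcodes per library. Barcodes with 200 to 7000 genes were kept. Scanpy 1.11.5 selected 2500 variable genes, without the 8 genes described, and clustered cells by Leiden (resolution 0.5) on 19 principal components. Of 18 clusters, 7 stayed unnamed, and the rest were named from fixed markers. Doublets were marked by Scrublet (1473 of 28530 cells) and removed only as an alternative. UMIs were summed per library and class, and classes with under 10 cells in a library were left out. edgeR 4.0.16 (filterByExpr, TMM, 4 group means in 1 fit) gave the tests, with 95% intervals from the SE by the normal approximation. Shares were compared by exact permutation. The study tested cells as replicates, whereas here the replicate was the library. The fits were tested on simulated data. DESeq2 1.42.0 and other settings were alternatives.

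The 8 genes and all lists were chosen with earlier results of these data known. Named were the 8 genes, per contrast up to 3 partner genes with the lowest unadjusted p under 0.05, and the 3 genes closest to each of the 8 over classes. For thinned cells 300 UMIs were drawn without replacement, leaving out shallower cells (87 of 4553 astrocyte-like). Promoter windows were matched by symbol for 7 of the 8 genes. Totals per library cover 1041675 to 2237505 UMIs with 1121 to 2526 cells and a median of 429.0 to 736.5 UMIs per cell. Replicate numbers are names given in accession order.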

Additional observations from a re-analysis of the deposited data

How the results depend on the processing

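No paired analysis was possible because the labels give no replicate numbers, and the numbers in the titles, whose meaning is not given, were shared by 0 pairs of male and 1 pair of female libraries of opposite genotype. Over 34 log2 fold changes of the 8 genes, direction was kept in 427 of 458 values under the other settings, and in 454 of 476 values with 1 library left out. None of the changed signs belonged to a called value, and the cause was not tested. Below, M, F and D stand for males, females and their difference in astrocyte-like cells.

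With library totals, added after seeing the data, the values were Slc1a2 0.013 (M), Slc1a3 0.262 (M) and 0.162 (D), Slc4a4 0.109 (M) and 0.024 (D) and Glul -0.041 (F). With the mitochondrial share as a covariate, also added then, they were Slc1a2 0.261 (M) and 0.144 (D), Slc1a3 0.263 (M) and 0.158 (D), Slc4a4 0.15 (M) and 0.081 (D), Kcnj10 -0.21 (M) and -0.652 (D), Gjb6 -0.017 (M), 0.13 (F) and -0.147 (D), Aqp4 -0.021 (D) and Glul -0.035 (D). Over all cells with that covariate, Kcnj10 was -0.069 (M) and -0.345 (D), and Gjb6 -0.161 (M), 0.13 (F) and -0.291 (D). With 500 genes per cell, Aqp4 was -0.412 (F), Kcnj10 over all cells -0.019 (F), and the astrocyte-like share differed by 2.77 percentage points in males and -0.393 in females. Glul (D) was -0.076 without a filter, -0.022 with the shared library as a WT male and -0.037 with classes from each cell's own markers. Gjb6 (F) was 0.043 without a filter, and Glul (F) -0.033 without MB22 titles. That setting called 1 of the 8 genes, Gja1, for the difference in astrocyte-like cells and in all cells, and 3 partner genes.

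With 1 library left out, the ranges that crossed 0 were Aqp4 -0.034 to 0.211 (F), Gjb6 -0.227 to 0.245 (F) and -0.403 to 0.28 (all cells, F), Glul -0.057 to 0.268 (F), -0.176 to 0.159 (D) and -0.03 to 0.242 (M), Kcnj10 -0.06 to 0.294 (all cells, F), Slc1a3 -0.121 to 0.02 (M) and Slc4a4 -0.021 to 0.303 (F). The THY-Tau22 minus WT difference in females ranged from -1.28 to 1.83 percentage points for the astrocyte-like share and from -0.422 to 0.012 for the mitochondrial share. Without WT female replicate 3, the exact permutation p for the mitochondrial share was 0.0476, the smallest that the remaining libraries allow. Genes of the 8 called for the difference ranged from 0 to 1, in astrocyte-like and in all cells, and partner genes in astrocyte-like cells from 0 to 3, all highest without WT female replicate 3, where 14.5% of all genes in astrocyte-like and 9.56% in all cells were called. Gjb6 in males ranged from 0.338 to 0.717, and over all cells from 0.348 to 1.01, both lowest without THY-Tau22 male replicate 3. Gja1 in males ranged from 0.668 to 0.827.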
